A study of Mus musculus with 3 samples.

Results

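The genes described are 10 subunits of voltage-gated calcium channels, chosen by name from the 32285 features counted in mouse retinal horizontal cells. They are the pore genes Cacna1a, Cacna1b, Cacna1c, Cacna1d and Cacna1e, the beta subunit genes Cacnb2 and Cacnb4, and the alpha2delta genes Cacna2d1, Cacna2d2 and Cacna2d3. Horizontal cells are the lateral inhibitory neurons of the outer retina, with dendrites and axon terminals that invaginate into cone and rod terminals. Single-cell RNA was counted in 3 libraries, 1 each from mouse retinas at postnatal days 6, 8 and 11 (P6, P8 and P11). All 3 carried the same alleles, Cx57icre, a Cre driver taken from the gene of the gap-junction protein Cx57, and Ai14, a reporter that turns red after Cre has acted. Retinas were dissociated with papain, and the red cells were collected on a sorter before droplet capture with 10x Genomics 3' chemistry. The sort therefore takes cells in which this driver has been active, and the number of animals behind each library is not given in the sources used here. With 1 library per age, age and library cannot be told apart, no test between ages was possible, and every interval below is a 95% interval that covers counting error only.

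A voltage-gated calcium channel opens when the membrane depolarizes and lets calcium into the cell. Its alpha1 subunit forms the pore and sets the current type, a cytoplasmic beta subunit brings the pore to the membrane and tunes its gating, and an extracellular alpha2delta subunit raises the number of channels at the surface and takes part in synapse formation. In the retina, pores of the L type drive release at ribbon synapses, while the P/Q and N types serve most conventional synapses of the brain. Horizontal cells carry calcium currents of their own.

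Horizontal cells were taken as barcodes with at least 1000 genes, at most 10% mitochondrial counts and a count of at least 2 of the transcription factor genes Lhx1, Onecut1 and Onecut2. This gave 7145 (P6), 3153 (P8) and 4757 (P11) cells, between 94.4% and 96.2% of the barcodes that passed the first 2 limits. A count is a unique molecular identifier (UMI), 1 captured RNA molecule. The summed UMIs were 82305608 (P6), 62520239 (P8) and 103160766 (P11), with a median per cell of 12161, 20671 and 22106. Levels are given as UMIs per 1000000 summed UMIs (CPM). As a check of the label, 10 horizontal cell markers summed to 6474 (P6), 10014 (P8) and 15944 CPM (P11). The 3 of them that made the rule are present by selection and cannot check it. Lhx1, Onecut1 and Onecut2 had 702.5, 766 and 1025 CPM at P6, 825, 690 and 828 at P8, and 791, 683 and 865 at P11. Outside the rule, Tfap2b had 1671 (P6), 1466 (P8) and 1698 CPM (P11), and Calb1 702, 1714 and 2952 CPM. In each library 1 of the 10 was under 1 CPM. By contrast, 7 rod markers summed to between 5.82 and 7.62 CPM and 6 cone markers to between 0.448 and 1.11 CPM. The 9 bipolar markers summed to 21.6 (P6), 6.19 (P8) and 5.30 CPM (P11), with Lrtm1, which lies inside Cacna2d3 on the other strand, giving 15.7, 2.58 and 2.27 CPM of these. The 6 amacrine markers summed to 254 to 291 CPM, mostly Slc32a1, which horizontal cells also use, and the 6 Müller glia markers to 133 (P6), 142 (P8) and 206 CPM (P11), mostly Glul. The 5 ganglion cell markers summed to 48.9 (P6), 24.0 (P8) and 17.5 CPM (P11), mostly Slc17a6. The part of RNA from amacrine, Müller and ganglion cells in the results was not tested. The libraries shared few barcodes, 13 between P6 and P8, 8 between P8 and P11 and 15 between P6 and P11, of which at most 8 were horizontal cells in both.

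The P8 library stood apart in a way that touches every gene below. Malat1, a long RNA that stays in the nucleus, had 20337 (P6), 15319 (P8) and 21409 CPM (P11), and its median share of a cell's UMIs was 1.98%, 1.10% and 1.95%. Genes that cover much DNA were low at P8. When the 10045 genes with an annotated span that averaged at least 5 CPM over the 3 libraries (called tested below) were split into 5 groups by the span from first to last annotated base, the median log2 ratio (P8 over P6) was 0.20 in the shortest group and -0.71 in the longest. All 10 subunit genes belonged to the longest group, with spans between 129.7 kb (Cacna2d2) and 817 kb (Cacna2d3), so the ratios of each gene are given below beside those of genes of like span.

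The genes lie on 7 chromosomes in the mm10 build (GENCODE vM21). Cacna1e is at chr1:154390731-154884501, and chromosome 2 holds Cacnb2 at chr2:14603088-14987908, Cacna1b at chr2:24603887-24763152 and Cacnb4 at chr2:52428320-52676831. Cacna2d1 is at chr5:15934691-16374511, Cacna1c at chr6:118587240-119196418, Cacna1a at chr8:84388440-84640246 and Cacna2d2 at chr9:107399612-107529343. Cacna2d3 at chr14:28904943-29721864 and Cacna1d at chr14:30039939-30491455 lie near each other on the minus strand. Among the counted features with an annotated span, each that overlaps a subunit gene lies on the opposite strand. The strand setting of the counting is not given in the sources used here, and whether reads of such pairs were kept apart was not checked. Among these partners Gm48003, inside Cacna2d3, had the most CPM at P6 and P8, with 37.1 (P6), 8.21 (P8) and 10.4 CPM (P11), against 1354, 517 and 675 CPM for Cacna2d3 itself. At P11 Dcp1a, which overlaps Cacna1d, had the most, with 13.4 (P6), 7.26 (P8) and 12.7 CPM (P11). Dcp1b, which overlaps Cacna1c, had 12.6, 5.998 and 9.80 CPM, so that, unlike Cacna1c, its lowest level was at P8.

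Promoter windows of 4 of these genes are shown, chosen by their place in the comparison between P11 and P6. Cacna1c was the lowest and Cacna1d the highest of the 10 ratios, while Cacna1b and Cacna2d3 sat almost exactly on the 2-fold limit. Each window runs from 250 bases before to 50 bases after a transcript start in RefSeq (GRCm38.p6, all on the minus strand, written 5' to 3'), and the one farthest upstream of each gene was taken. Capitals mark matches, on either strand, to any of 6 searched motifs: the TATA box TATAAA, the CCAAT box CCAAT, the Sp/KLF box GGGCGG, the cAMP response element TGACGTCA, the homeodomain core TAATTA and ATCAAT as the Onecut core.
Cacna1b, chr2:24763103-24763402: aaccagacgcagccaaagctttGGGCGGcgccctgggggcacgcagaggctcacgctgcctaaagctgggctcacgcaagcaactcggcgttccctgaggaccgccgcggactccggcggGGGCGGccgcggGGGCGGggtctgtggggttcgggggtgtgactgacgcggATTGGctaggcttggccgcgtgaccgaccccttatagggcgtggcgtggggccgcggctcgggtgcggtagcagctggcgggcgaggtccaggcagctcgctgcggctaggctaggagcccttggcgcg
Cacna1c, chr6:119196360-119196659: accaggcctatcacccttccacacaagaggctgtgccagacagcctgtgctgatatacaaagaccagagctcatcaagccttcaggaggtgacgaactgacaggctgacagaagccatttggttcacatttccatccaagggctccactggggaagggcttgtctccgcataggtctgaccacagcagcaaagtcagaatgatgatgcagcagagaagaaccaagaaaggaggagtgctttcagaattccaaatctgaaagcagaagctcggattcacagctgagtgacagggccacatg
Cacna1d, chr14:30491107-30491406: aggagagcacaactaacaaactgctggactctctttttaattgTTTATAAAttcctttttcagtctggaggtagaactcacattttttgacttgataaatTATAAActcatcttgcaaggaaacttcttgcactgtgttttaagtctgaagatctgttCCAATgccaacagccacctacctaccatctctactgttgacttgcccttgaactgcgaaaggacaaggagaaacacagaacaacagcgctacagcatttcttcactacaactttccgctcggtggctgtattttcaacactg
Cacna2d3, chr14:29721815-29722114: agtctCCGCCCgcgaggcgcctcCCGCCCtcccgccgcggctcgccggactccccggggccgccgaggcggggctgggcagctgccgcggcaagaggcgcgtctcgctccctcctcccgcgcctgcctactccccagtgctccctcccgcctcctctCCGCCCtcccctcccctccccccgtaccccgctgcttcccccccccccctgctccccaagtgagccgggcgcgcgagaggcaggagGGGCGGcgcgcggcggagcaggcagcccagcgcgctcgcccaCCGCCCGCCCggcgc

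The windows differ in letter content. The Cacna2d3 window is 81.3% G or C and holds 6 matches to GGGCGG, of which 2 overlap at its end, and the Cacna1b window is 72.3% G or C with 3 matches to GGGCGG and 1 to CCAAT on the reverse strand. The Cacna1d window is 40.3% G or C and holds TATAAA 3 times, where 2 of the matches overlap on opposite strands, and CCAAT once. The Cacna1c window is 51.3% G or C and has no match to any of the 6. Of 32851 RefSeq windows, 35.7% hold GGGCGG, 37.4% CCAAT and 13.6% TATAAA, so each of these matches is common. Cacna1c and Cacna1d also have inner starts. The windows at chr6:119108446-119108745 and chr14:30353437-30353736 are 81.3% and 87.3% G or C, each with 6 matches to GGGCGG. The counts of a gene do not say which start was used. Over the 15 windows found for 9 of the 10 genes the median was 71.7% G or C, against 52.7% over all windows.

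Cacna1a, the P/Q-type pore of most central synapses, had 285 (P6), 162 (P8) and 210.0 CPM (P11). Its P11 level was 1.36 times lower than at P6 (1.33 to 1.38), with a log2 ratio of -0.44. The same shape, highest at P6, lowest at P8 and in between at P11, appeared in 7 of the 10 genes. Of all tested genes, 48.9% were highest at P6 and 47.9% lowest at P8, beside 8 and 9 of the 10. The share of all tested genes with the whole shape was not counted. Among 545 tested genes of similar span (within 1.5-fold) the P8 over P6 median was -0.85 on the log2 scale, next to -0.82 for Cacna1a, and that of P11 over P6 was -0.36.

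Cacna1b, the N-type pore, had 121.8 (P6), 52.1 (P8) and 60.9 CPM (P11). Its level at P11 was 2.001 times lower than at P6 (1.94 to 2.07), so its interval spans the 2-fold limit. Between P11 and P8 the log2 ratio was 0.22. Genes of similar span had a median of -0.28 for P11 over P6, and the difference of Cacna1b from it was -0.72.

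The 2 L-type pores lay on opposite sides of their P6 level at P11. Cacna1c, the L-type pore best known from heart and smooth muscle and also a neuronal channel, had 20.1 CPM in the P6 library (1656 UMIs), 3.42 CPM in the P8 library (214 UMIs) and 2.53 CPM in the P11 library (261 UMIs). It was the only one of the 10 genes with its lowest level at P11. That level was 7.95 times lower than at P6 (6.98 to 9.10), a log2 ratio of -2.99. Already at P8 it was 5.88 times lower than at P6 (5.10 to 6.81). The 192 genes of similar span had a median of -0.59 for P11 over P6, from which Cacna1c differed by -2.40.

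Cacna1d, the L-type pore that opens at more negative voltages and serves pacemaking and hair cell release, had 27.7 (P6), 17.0 (P8) and 39.5 CPM (P11). P11 was its highest library. Its level there was 2.33 times that at P8 (2.18 to 2.50) and 1.42 times that at P6 (1.35 to 1.5). Genes of similar span had medians of 0.56 and -0.46 for these comparisons, and Cacna1d lay 0.66 and 0.97 above them. Summed over both genes, L-type CPM was 47.9 (P6), 20.4 (P8) and 42.0 (P11), and within it the balance of the 2 genes differed. Cacna1d made up 58.0% of it at P6, 83.2% at P8 and 94.0% at P11.

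Cacna1e, the R-type pore, had 18.0 (P6), 5.58 (P8) and 7.36 CPM (P11). Its level at P11 was 2.45 times lower than at P6 (2.24 to 2.67), and its log2 ratio differed by -0.79 from the median of genes of similar span.

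**Figure D1:**
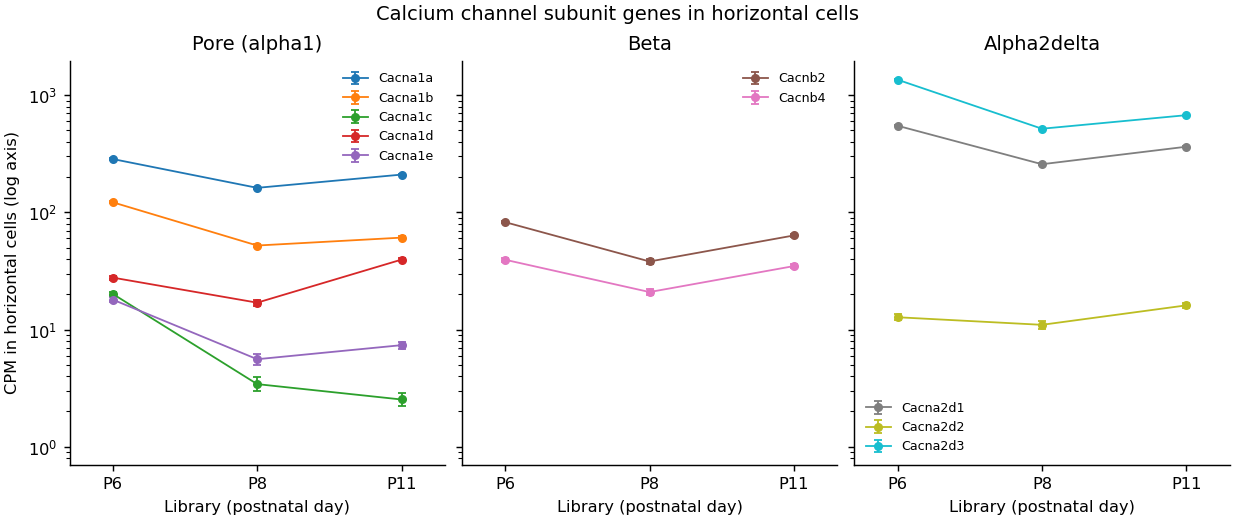
Level of each of the 10 subunit genes in CPM (log axis) in the P6, P8 and P11 libraries, 1 point per library with exact Poisson 95% intervals that cover counting error only. Most of the 10 are lowest at P8, as are 47.9% of all tested genes. Cacna1c is lowest at P11 with 2.53 CPM, and Cacna1d and Cacna2d2 are highest at P11 with 39.5 and 16.1 CPM.

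The beta subunit genes had like profiles, highest at P6 and lowest at P8. Cacnb2, the beta subunit needed for photoreceptor release, had 82.4 (P6), 38.1 (P8) and 63.5 CPM (P11). Cacnb4, a beta subunit of central neurons, had 39.4, 20.9 and 34.8 CPM. Each was about 1.67 times higher at P11 than at P8 (1.59 to 1.75 and 1.56 to 1.78). Relative to P6, the P11 level was 1.30 times lower for Cacnb2 (1.25 to 1.34) and 1.13 times lower for Cacnb4 (1.08 to 1.19), but the direction for Cacnb4 turned with TMM scaling (log2 ratio 0.019) and median-of-ratios scaling (0.018). In P11 over P6 both lay slightly above the median of genes of similar span, by 0.05 and 0.18 on the log2 scale. In P11 over P8 those medians were 0.55 and 0.49, from which Cacnb2 differed by 0.19 and Cacnb4 by 0.24. In P8 over P6 the differences were -0.15 and -0.07.

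Cacna2d3, an alpha2delta subunit needed for hearing and for presynaptic channel placement, had 1354 (P6), 517 (P8) and 675 CPM (P11). P6 was far the highest of its libraries, and the P11 level was 2.01 times lower (1.99 to 2.03). With the longest span of the 10, it is set against 130 genes, whose median log2 ratio was -1.36 for P8 over P6 and -0.71 for P11 over P6. Its own ratios were -1.39 and -1.005.

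Cacna2d1, an alpha2delta subunit that binds gabapentin, had 548 (P6), 257 (P8) and 363 CPM (P11). Its P11 level was 1.51 times lower than at P6 (1.49 to 1.53), and its log2 ratios differed from the median of genes of similar span by -0.14 to -0.06 in the 3 comparisons. Cacna2d2, the subunit mutated in ducky mice, was low throughout, with 12.7 (P6), 11.0 (P8) and 16.1 CPM (P11). Unlike the other alpha2delta genes it was highest at P11, 1.26 times its P6 level (1.17 to 1.37). Its P8 over P6 log2 ratio of -0.21 changed sign with TMM (0.06) and median-of-ratios scaling (0.10). It also did so relative to the median of its span group (0.49) and of genes of similar span (0.35), and against genes of similar span its P11 over P6 difference was 0.56.

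Read over the list, 6 of the 10 genes were at least 2-fold lower at P8 than at P6, namely Cacna1b, Cacna1c, Cacna1e, Cacnb2, Cacna2d1 and Cacna2d3, and none was 2-fold higher. Of the 10051 genes over that minimum, with or without an annotated span, which include all 10 subunit genes, 8.94% were 2-fold lower and 1.73% 2-fold higher in this comparison, and of the 2009 genes in the longest span group 29.2% were 2-fold lower. That group starts at 80.8 kb, below the span of any of the 10, and has a median span of 144.7 kb. Genes of similar span to each of the 10 had median log2 ratios from -0.57 (Cacna2d2) to -1.36 (Cacna2d3) in this comparison. Between P11 and P8, Cacna1d alone was 2-fold higher, against 2.07% of tested genes, and none was 2-fold lower, against 1.41%. Between P11 and P6, 4 were 2-fold lower, Cacna1b, Cacna1c, Cacna1e and Cacna2d3, against 5.54% of tested genes and 12.2% of the longest group. None was 2-fold higher, against 2.62%. In this comparison 32.1% of the 2-fold calls over all tested genes were higher, and 16.2% in P8 over P6 and 59.4% in P11 over P8. With TMM scaling these shares were 51.2%, 49.9% and 46.5%, since TMM moved every log2 ratio by 0.20, 0.28 and -0.08. At a 1.5-fold limit, 9 of the 10 were lower in P8 over P6, against 22.9% of tested genes, and none higher, against 7.5%. In P11 over P8 3 were higher, against 10.7%, and none lower, against 4.73%, and in P11 over P6 5 were lower, against 13.6%, and none higher, against 7.77%. Just inside the 2-fold limit were Cacna1b and Cacna2d3 (2.001 and 2.01 times lower), and the next gene outside was Cacna2d1 (1.51 times lower).

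The median log2 ratio of the 10 was -1.10 for P8 over P6, 0.45 for P11 over P8 and -0.52 for P11 over P6, beside -0.18, 0.11 and -0.08 for all tested genes. After subtracting from each gene the median of genes of similar span, the medians became -0.07, -0.09 and -0.11. What then remained large were single genes, from -2.40 for Cacna1c to 0.97 for Cacna1d in the comparison of P11 with P6. When cells were weighted so that the 3 libraries had the same distribution of the Malat1 share, the P8 over P6 ratio was -2.25 for Cacna1c, -1.210 for Cacna2d3 and -0.69 for Cacna1a, beside the unweighted -2.56, -1.39 and -0.82. The part of gene span and nuclear RNA in the levels at P8 was otherwise not tested.

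**Figure D2:**
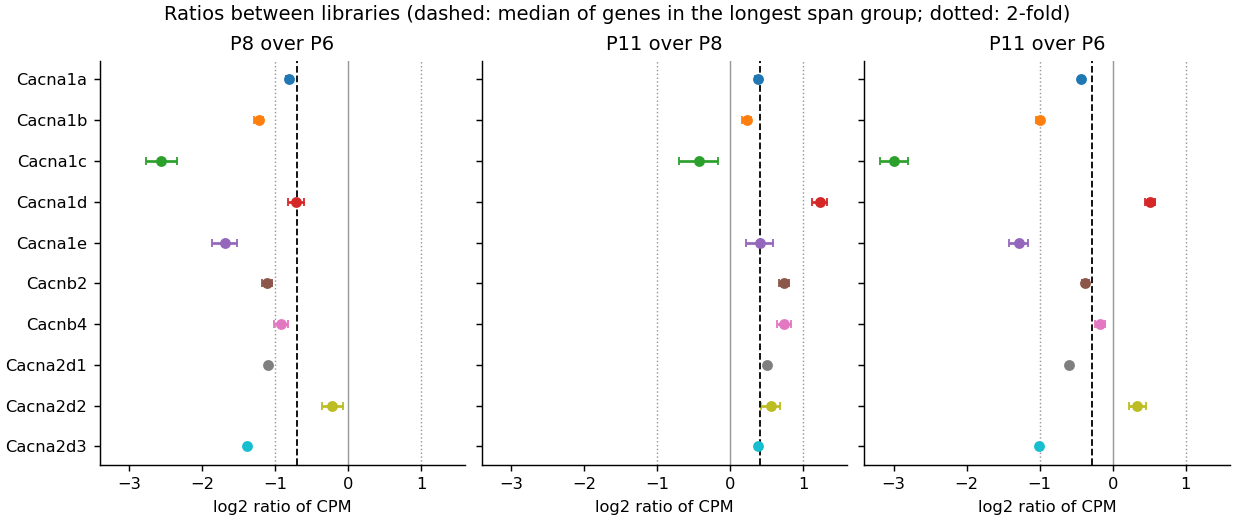
Log2 ratios of CPM for the 10 subunit genes in P8 over P6, P11 over P8 and P11 over P6, with exact conditional 95% intervals (counting error only); dotted lines mark 2-fold and the dashed line the median of the longest span group. Cacna1c lies at -2.99 and Cacna1d at 0.51 in P11 over P6, on opposite sides of the dashed line.

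**Figure D3:**
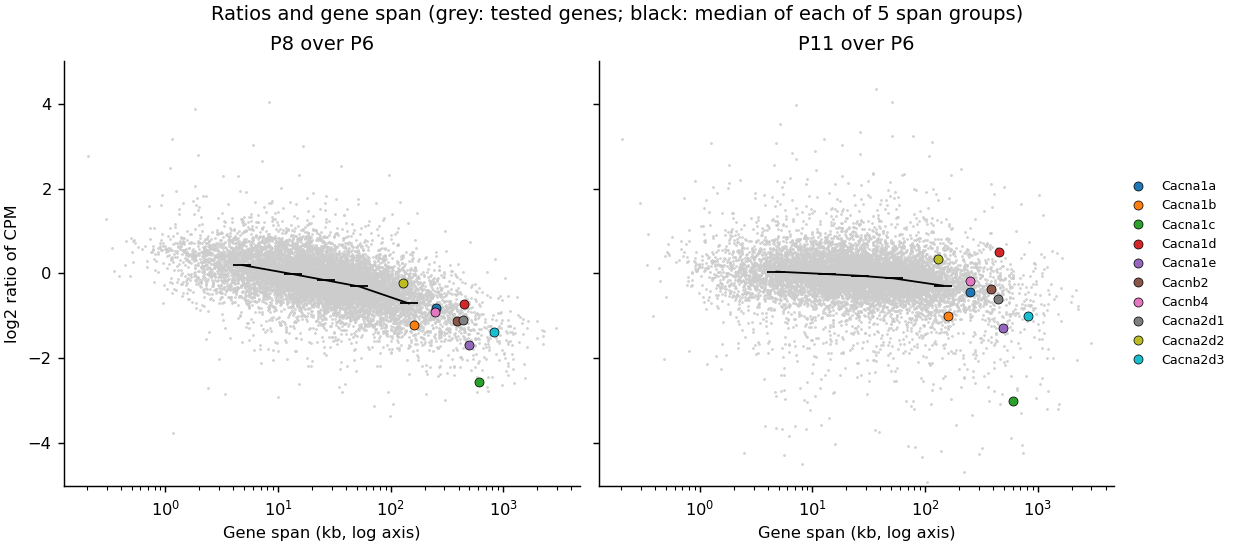
Log2 ratio against gene span (kb, log axis) for P8 over P6 and P11 over P6, with 10045 tested genes in grey, the medians of 5 span groups in black and the subunit genes in colour; 2 and 8 genes lie beyond the axis. The group medians run down to -0.71 at the longest spans for P8 over P6 and to -0.29 for P11 over P6.

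Levels of different genes were compared per kb of annotated exon, a scale that 3' counts need not follow. On it the order at P6 was Cacna2d3 (155 CPM per kb), Cacna2d1 (44.1), Cacna1a (24.96), Cacna1b (12.3), Cacnb2 (6.23), Cacnb4 (4.39), Cacna1d (2.20), Cacna2d2 (1.602), Cacna1c (0.949) and Cacna1e (0.713). The first 6 places were the same in all 3 libraries. Below them, Cacna1d and Cacna2d2 could not be ordered at P8 (1.34 and 1.38 CPM per kb, with overlapping intervals), and Cacna1c, which stood above Cacna1e at P6, stood below it at P8 and at P11 (0.119 and 0.292 CPM per kb).

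Within the 5 listed pore genes, Cacna1a held 60.3% (P6), 67.5% (P8) and 65.6% (P11) of UMIs. Cacna1b held 25.8%, 21.7% and 19.0%, and Cacna1d 5.87%, 7.07% and 12.3%. The shares of the other pore genes were lower at P8 and P11 than at P6, with 4.26%, 1.43% and 0.790% for Cacna1c and 3.81%, 2.33% and 2.298% for Cacna1e. Per kb of exon the shares were 60.8%, 67.0% and 65.6% for Cacna1a and 5.35%, 6.35% and 11.2% for Cacna1d, while those of Cacna1c (2.31%, 0.764% and 0.426%) and Cacna1e (1.74%, 1.05% and 1.04%) were lower than by UMIs alone. Between the 2 listed beta genes, Cacnb2 held 67.7% (P6), 64.6% (P8) and 64.6% (P11). Among the alpha2delta genes, Cacna2d3 held 70.7%, 65.8% and 64.0% of UMIs, Cacna2d1 28.6%, 32.8% and 34.5%, and Cacna2d2 0.665%, 1.40% and 1.53%. Per kb of gene span the share of Cacna2d3 was 55.2%, 48.6% and 46.5%, about level with Cacna2d1 at P11 (46.5%).

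The 5 pore genes summed to 473 (P6), 240 (P8) and 320.2 CPM (P11), the 2 beta genes to 121.8, 59.0 and 98.3, and the 3 alpha2delta genes to 1915, 785 and 1054. At P11 the sums were 67.7% (66.8 to 68.8), 80.7% (78.5 to 83.0) and 55.0% (54.6 to 55.5) of those at P6.

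Among the pore genes outside the list, 1 had the highest level in each library. Cacna1h, a T-type pore that opens at low voltage, had 133 (P6), 167 (P8) and 255 CPM (P11). It was 1.91 times higher at P11 than at P6 (log2 ratio 0.93, and between 0.92 and 1.13 under the alternatives tried). Cacna1g, the other T-type pore with a sizeable level, had 40.4, 22.7 and 11.3 CPM and was 3.57 times lower at P11 than at P6 (3.33 to 3.82). Counting all 10 pore genes, the T type held 26.9% of pore UMIs at P6, 44.1% at P8 and 45.4% at P11, against 44.1%, 37.7% and 35.8% for the P/Q type, 18.8%, 12.1% and 10.4% for the N type, and 7.40%, 4.74% and 7.16% for the L type. Cacna1h spans 59.5 kb and Cacna1g 65.8 kb, less than any listed pore gene. In P8 over P6, genes of similar span had a median log2 ratio of -0.32 for Cacna1h and -0.85 for Cacna1a. From these medians Cacna1h differed by 0.64 and Cacna1a by 0.03. Per kb of gene span, Cacna1h held 45.8% (P6), 67.0% (P8) and 74.0% (P11) of the total over all 10 pore genes. Cacna1a held 23.2%, 15.4% and 14.4%, so on this scale Cacna1h stood above Cacna1a already at P6. Apart from this division, the part of gene span in the shares was not tested. The sum of all 10 pore genes was 647 (P6), 430 (P8) and 587 CPM (P11), so that at P11 it was 90.7% of the P6 level (89.7 to 91.8). Cacna1f, the L-type pore of photoreceptor terminals, reached at most 0.097 CPM, and of Cacna1i, Cacna1s and Cacna2d4 the highest value was 0.583 CPM.

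**Figure D4:**
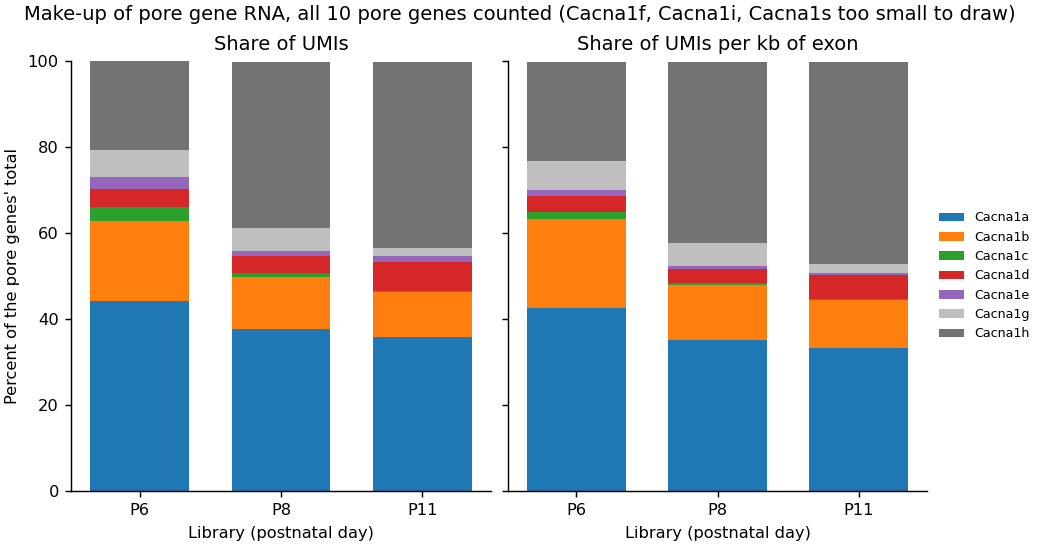
Share of each pore gene in the UMIs of all 10 pore genes (left) and in UMIs per kb of annotated exon (right), in the P6, P8 and P11 libraries; bars stack to 100. Cacna1h takes 20.6%, 38.8% and 43.4% of UMIs at P6, P8 and P11, and Cacna1a 44.1%, 37.7% and 35.8%. The shares are not corrected for gene span, which is shorter for Cacna1h than for the listed pore genes.

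Of the beta genes outside the list, Cacnb3 had 48.7 (P6), 24.7 (P8) and 13.4 CPM (P11), and Cacnb1 had 9.94, 6.99 and 4.72 CPM. Cacnb3 was 3.64 times lower at P11 than at P6, the opposite course to Cacnb2 and Cacnb4 between P8 and P11. Per kb of exon Cacnb3 was the highest beta gene at P6, with 12.2 CPM per kb against 6.23 for Cacnb2, and at P11 it had 3.33 against 4.80. Per kb of gene span Cacnb3 held 81.0% (P6), 78.1% (P8) and 65.1% (P11) of the total over all 4 beta genes. Over all 4 beta genes, Cacnb2 held 45.7%, 42.0% and 54.6% of UMIs, Cacnb4 21.8%, 23.0% and 29.9% and Cacnb3 26.99%, 27.3% and 11.5%. The sum of all 4 was 180.5 (P6), 90.7 (P8) and 116.4 CPM (P11), and at P11 it was 64.5% of the P6 level (63.0 to 66.1). Of the 16 listed further subunit genes, which include the gamma family that mostly serves AMPA receptors, 8 were tested. In P8 over P6, 1 was 2-fold lower (Cacng8, with 20.3, 8.97 and 7.97 CPM in the P6, P8 and P11 libraries), in P11 over P8 1 was lower (Cacna1g), and in P11 over P6 4 were lower, with Cacnb3 and Cacna1g the farthest, beside 8.94%, 1.41% and 5.54% of all tested genes. None was 2-fold higher in any comparison, beside 1.73%, 2.07% and 2.62% of all tested genes. Cacna1h, however, passed 2-fold in P11 over P6 under TMM scaling (log2 ratio 1.13), median-of-ratios scaling (1.13) and relative to its span group (1.05) or genes of similar span (1.06). The median log2 ratios of the list were -0.83, -0.12 and -0.99.

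Of 36 channel partner genes (active zone, release and regulatory genes), 25 were tested. In P8 over P6, 5 were 2-fold lower (beside 8.94% of all tested genes and 29.2% of the longest span group), led by Erc2, an active zone scaffold (213, 74.0 and 127.2 CPM), and Rimbp2, which links pores to release sites (20.6, 7.65 and 11.4 CPM). In P11 over P8 none passed 2-fold either way, while 2.07% of all tested genes were higher and 1.41% lower. In P11 over P6 1 was lower, beside 5.54% of all tested genes. It was Rims3, a short RIM family gene (8.72, 4.25 and 3.18 CPM). The median log2 ratios were -0.47, 0.30 and -0.19. Rims1 and Rims2, scaffolds that hold P/Q and N channels at release sites, had 125.2, 49.6 and 83.0 CPM and 280.3, 135.9 and 209 CPM.

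Of 25 genes for calcium clearance and stores, 18 were tested, with 3 at least 2-fold lower in P8 over P6 (8.94% of all tested genes). None was past the limit in P11 over P8 (2.07% of all higher and 1.41% lower), and 1 was lower in P11 over P6 (5.54% of all). That gene was Slc8a1, a sodium-calcium exchanger that removes calcium, with 75.8 (P6), 16.8 (P8) and 11.8 CPM (P11). It had its lowest level at P11, as Cacna1c did. Ryr3, a calcium release channel of internal stores, had 205 (P6), 77.7 (P8) and 148.5 CPM (P11). The median log2 ratios of the list were -0.71, 0.38 and -0.24. Of 12 genes for other calcium entry routes 9 were tested, with 3 lower in P8 over P6 (8.94% of all), 2 lower in P11 over P8 (1.41% of all) and 2 lower in P11 over P6 (5.54% of all). These were Gria1, an AMPA receptor subunit (61.1, 12.04 and 3.55 CPM), and Grin2b, an NMDA receptor subunit (18.2, 5.76 and 2.14 CPM). The medians of this list were -0.82, 0.56 and -0.25.

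To compare shares of cells at equal depth, each cell was thinned to 3000 UMIs, which left out 377 (P6), 97 (P8) and 90 cells (P11). A UMI of Cacna2d3 was then found in 95.6% (P6), 74.6% (P8) and 82.3% (P11) of cells, and one of Cacna2d1 in 76.5%, 52.1% and 64.0%. Cacna1a was found in 54.5%, 39.2% and 46.0% of cells and Cacna1b in 28.9%, 14.8% and 15.4%. Unthinned, the shares were 99.2%, 98.7% and 99.5% for Cacna2d3, 95.9%, 95.7% and 98.3% for Cacna2d1, 87.8%, 90.4% and 94.9% for Cacna1a and 66.6%, 59.2% and 67.6% for Cacna1b, with deeper cells at P8 and P11 than at P6. Cacna1c was found in 5.60% of thinned P6 cells (5.06 to 6.17), 0.949% of P8 cells (0.636 to 1.36) and 0.793% of P11 cells (0.559 to 1.09). Cacna1d was found in 7.33% (6.72 to 7.98), 5.37% (4.59 to 6.23) and 11.3% (10.4 to 12.2). Unthinned, Cacna1c was found in 18.1%, 5.74% and 4.23% of cells and Cacna1d in 24.7%, 26.0% and 51.0%. The thinned shares order the libraries as the CPM values do.

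**Figure D5:**
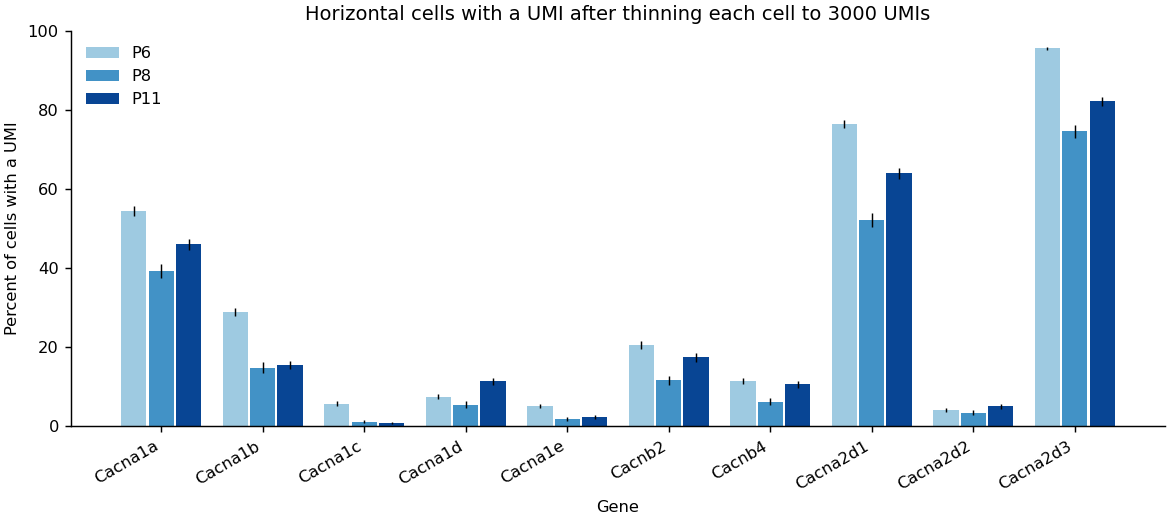
Percent of horizontal cells with a UMI of each subunit gene after thinning each cell to 3000 UMIs, for P6, P8 and P11, with exact binomial 95% intervals (6768, 3056 and 4667 cells). Cacna2d3 leads with 95.6%, 74.6% and 82.3%, and Cacna1c is in 0.793% of cells at P11.

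Free RNA can put UMIs of a gene into droplets of cells that do not make it. Barcodes with no Lhx1, Onecut1 or Onecut2 UMI and at least 3 markers of another class were few and shallow. The 20, 29 and 33 rod-marked barcodes at P6, P8 and P11 had medians of 1970, 2382 and 2011 UMIs, and together held 5, 1 and 1 UMIs of Cacna2d3, which is 88.4, 13.4 and 12.4 CPM against 1354, 517 and 675 in horizontal cells. They held 1 UMI of Cacna1h in each library. Cacnb2 was the reverse, with 336, 617 and 892 CPM in rod-marked barcodes. Cacna2d3 had 69.7, 71.1 and 159.6 CPM in bipolar-marked and 203, 0 and 70.3 CPM in amacrine-marked barcodes. Cacna1h had 17.4, 17.8 and 100.8 CPM in bipolar-marked and 135.1, 0 and 30.1 CPM in amacrine-marked barcodes, the P6 amacrine value (8 UMIs, 58.3 to 266) being close to the 133 CPM of P6 horizontal cells. The 4 amacrine-marked barcodes at P8 held too few UMIs to show a level, a count of 0 there allowing up to 125.6 CPM (exact interval). Cacna1d had 148, 338 and 412 CPM in the bipolar-marked barcodes (37, 13 and 25), above its level in horizontal cells, and Cacna1a 1791, 953 and 823 CPM in amacrine-marked barcodes (14, 4 and 13). For Cacna1c, of the 5 listed pore genes the one with the fewest UMIs at P8 and P11, rod-marked barcodes held 0, 0 and 3 UMIs and bipolar-marked ones 7, 6 and 3. Amacrine-marked barcodes held 7, 1 and 11, and Müller-marked ones 2, 0 and 0. In CPM these few UMIs are 0, 0 and 37.2 (rod), 61.0, 106.6 and 25.2 (bipolar), 118, 34.0 and 110 (amacrine) and 30.7, 0 and 0 (Müller). Horizontal cells had 20.1, 3.42 and 2.53 CPM. Of the thinned rod-marked barcodes 0 of 8 at P8 (exact interval up to 36.9%) and 1 of 7 at P11 had a Cacna1c UMI, numbers too small to set a floor for the low shares of this gene. The share of free RNA in the P8 and P11 counts of Cacna1c was not tested. Barcodes with at least 2 markers of rods, cones, bipolar cells or any of 5 further classes were also left out. The 5 were microglia, endothelial cells, pericytes, cycling progenitors and erythroid cells. This changed no ratio of the 10 genes beyond its counting interval. Markers of amacrine, ganglion and Müller cells and astrocytes were not part of this filter.

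Single cells were compared at 10000 UMIs each (4492, 2857 and 4443 cells). A cell then held on average 13.2 UMIs of Cacna2d3 (P6), 4.91 (P8) and 6.55 (P11), and the quartiles were 9 to 17, 3 to 7 and 4 to 9. Its variance over mean between cells was 2.22, 1.92 and 1.98, beside medians of 1.77, 1.19 and 1.26 for genes of similar mean. Cells with a UMI of both Cacna1a and Cacna1b made up 62.2% (P6), 30.2% (P8) and 36.2% (P11), while 2.45%, 13.4% and 7.40% of cells had none of the 5 listed pore genes. Between genes, correlations over cells were weak, with medians over 45 pairs of 0.03, 0.05 and 0.04. The largest was that of Cacna2d1 with Cacna2d3 (0.29, 0.32 and 0.29), and both also went with the Malat1 count of the same cell, Cacna2d3 at 0.46, 0.53 and 0.52 and Cacna2d1 at 0.36, 0.44 and 0.40. These are descriptions of cells that share a library, and carry no test.

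The genes most like each subunit gene were sought among 3517 genes averaging at least 50 CPM, by the distance between their log2 ratios of P8 and of P11 over P6. With only 3 libraries, close matches are easy to find. Cacna1a lay closest to Arhgap26 (298, 170.4 and 221 CPM, distance 0.01), and Cacna1d to Slc24a2, an exchanger of sodium, calcium and potassium (173, 104 and 243 CPM, distance 0.03). Cacna2d3 lay closest to Srrm4, a neuronal splicing factor, Pde4d, a phosphodiesterase, and Ank3, the ankyrin gene of axon initial segments (551, 201 and 279 CPM, distance 0.07). Cacna1b lay nearest to Zfp704, Cadm1 and Snhg14, Cacnb2 to Med12l, Mical3 and Atrnl1, Cacnb4 to Atxn1, Tenm1 and Sfxn5, and Cacna2d1 to Plcxd3, Plxna2 and Lcor. Among these genes Cacna1c, which itself averaged 8.69 CPM, had no close match. The nearest was Gpc6 (615, 124.6 and 101.8 CPM) at a distance of 0.47, followed by Rbfox1 and Csmd2. Genes averaging under 50 CPM, as Cacna1c does, were not searched. Of these, Lrtm1 had log2 ratios of -2.61 (P8 over P6) and -2.79 (P11 over P6), beside -2.56 and -2.99 for Cacna1c.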

How the data were processed

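The authors deposited raw UMI counts per gene and barcode for the 3 libraries, and the submitters' processing notes name Cell Ranger 7.1.0 and mm10. Its annotation, strand setting and handling of introns were not given in the sources used here. Gene spans and exon lengths came from GENCODE vM21, where 32158 of 32285 features matched by ID.

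From these counts, CPM values were formed per library as a gene's UMIs in horizontal cells over all UMIs in them, with exact Poisson intervals for levels, exact conditional binomial intervals for ratios and Clopper-Pearson intervals for shares. Depth was 87939202, 65546590 and 105561999 UMIs at P6, P8 and P11. A gene was tested when it averaged at least 5 CPM over the 3 libraries, and counted when 2 libraries lay at least 2-fold apart. The ratio script was tested on simulated data. The samples are single libraries, so no p-value was computed and doublets were left in the reported values. Alternatives covered scaling with TMM factors (edgeR 4.0.16, R 4.3.3) or median-of-ratios factors, limits on cells and genes, removal of the highest Scrublet scores (scanpy 1.11.5), thinning, averaging over cells, gene span, Malat1 and fold limits. The analyses used Python 3.11.15, numpy 2.4.6, scipy 1.17.1 and pandas 2.3.3.

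The 10 genes and the lists were chosen with earlier results of these data known. All 10 are named. From each list at most 2 genes each way per comparison were named, those farthest past 2-fold, and for each gene reaching 20 CPM the 3 nearest genes averaging at least 50 CPM. Rims1, Rims2, Cacna1h, Cacnb1 and the overlapping genes were named after their values were seen. Comparison with genes of span within 1.5-fold, shares over all genes of a class, and the alternatives for genes outside the 10 were added after seeing the data. Some genes of the lists are not reported here by name.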

Additional observations from a re-analysis of the deposited data

How the results depend on the processing

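The count of 6 genes at least 2-fold lower in P8 over P6 was 3 with TMM scaling (4.55% of all tested genes), 3 with median-of-ratios scaling (4.0% of all), against 8.94% of all as reported, and 1 (Cacna1c) after subtracting the median of the gene-span group or of genes of similar span, the last chosen after seeing the data. The single gene 2-fold higher in P11 over P8 became 0 under both span settings and 3 at a 1.5-fold limit, and 1 gene instead of 0 was 2-fold lower against genes of similar span. The 4 genes lower in P11 over P6 were 2 with TMM scaling (4.0% of all), median-of-ratios scaling (4.02% of all), at most 5% mitochondrial UMIs, a higher gene minimum per cell, the gene-span group, or an average of at least 20 CPM, and 1 against genes of similar span. Apart from the scalings and the 1.5-fold limit (10.7% of all tested genes higher in P11 over P8), the share of all tested genes was not counted under these settings. The counts under the span, cell and level settings therefore cannot be set against such a share. By construction, Cacna1b and Cacna2d3 on the limit move with small shifts. For Cacna1c the log2 ratio of P11 over P6 stayed between -3.24 and -2.40 in the settings run, and for Cacna1d between 0.41 and 0.97. Of 30 ratios, 28 kept their sign under TMM and under median-of-ratios scaling, 24 against the span group and 20 against genes of similar span. All 30 kept their sign under the other 9 settings. Scaling and the subtraction of a median move a ratio by a set amount, so a ratio smaller than that amount can change sign by construction. The cause of the differences between span groups was not tested. Depth limits Cacna1c most, with 214 UMIs at P8. No paired analysis was possible because each age is 1 library with no replicates.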

Other observations

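Cacng4, a gamma subunit gene that serves AMPA receptors, averaged under 5 CPM and so was not tested. It had 11.6 (P6), 2.42 (P8) and 0.475 CPM (P11). After thinning to 3000 UMIs, Cacna1h was found in 32.7% of P6 horizontal cells (31.6 to 33.8), 39.4% of P8 cells (37.7 to 41.2) and 52.5% of P11 cells (51.0 to 53.9), while Cacna1g was found in 11.0%, 6.74% and 2.94%. Among genes that clear calcium, Atp2b2, a plasma membrane calcium pump, had 59.2 (P6), 60.2 (P8) and 86.3 CPM (P11). Micu3, a regulator of mitochondrial calcium uptake, had 226 (P6), 310 (P8) and 352 CPM (P11). These genes were chosen after their values were seen, and neither Atp2b2 nor Micu3 was 2-fold higher at P11 than at P6.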
